A study of Mus musculus with 44 samples.

Results

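The cytosolic ribosomal protein genes are described here across open chromatin, H3K27 acetylation and RNA of the brains of Polg(D181A) and wild-type (WT) mice. Members were taken by name and position: protein-coding autosomal genes whose symbol is Rpl or Rps with 1 or 2 digits and at most a trailing a, l, x or l1. The rule kept 75 of the 21900 protein-coding genes of the gene table, 46 of the large and 29 of the small subunit. It used no measured value. Proteins of the subunits named otherwise, such as Rplp0, Rpsa and Rack1, and X-linked members such as Rps4x and Rpl10 fell outside it and were kept as separate lists.

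The cytosolic ribosome joins a small subunit, which reads the mRNA, to a large subunit, which forms peptide bonds. Each subunit is built from ribosomal RNA and many proteins that are needed in equal amounts. The protein genes are housekeeping genes expressed in neurons and glia alike, and mammalian genomes carry many processed pseudogenes of them. Their mRNAs typically begin with a C followed by a run of pyrimidines, the 5′ terminal oligopyrimidine (TOP) tract, through which mTORC1 and LARP1 control their translation. Mitochondrial ribosomes use a separate set of nuclear-encoded proteins, the Mrpl and Mrps genes, and 78 of these served as the set most like the members.

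All mice were adult. The strain was labelled C57BL/6 for the H3K27Ac and RNA samples, while the 4 ATAC libraries were labelled C57BL/7, C57BL/8, C57BL/9 and C57BL/10. Nuclei for ATAC and H3K27Ac had been stained for NeuN, a marker of neuronal nuclei, and sorted by FACS. ATAC libraries came from the paraventricular thalamic nucleus (PVT), with 2 WT and 2 Polg(D181A) samples. H3K27Ac libraries came from 4 regions, the PVT, the nucleus accumbens (NAC), the caudate putamen (CP) and the cortex (COR), again with 2 WT and 2 Polg(D181A) samples a region. RNA came from the PVT in 5 groups of 4 libraries: WT euthymic COX-positive, and Polg(D181A) in the 4 combinations of euthymic or depressive state with COX-positive or COX-negative staining. COX is cytochrome c oxidase, the last enzyme complex of the respiratory chain. There was no WT group that was depressive or COX-negative, so genotype could be compared only in the euthymic COX-positive state. The promoter that drives the mutant allele, the number of animals behind a sample and the number of cells behind an RNA library were not given in the sources used here. No label says whether replicates are separate animals. The p-values below therefore refer to the spread among the libraries, and that spread may be technical.

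Depth differed widely. Total counts ran from 2932270 to 8040451 in ATAC, from 6415127 to 197650530 in H3K27Ac and from 26719334 to 115285349 in RNA. The neuronal marker list had a peak at 7 of 7 gene ends in ATAC, against 3 of 6 astrocyte, 2 of 7 oligodendrocyte, 1 of 6 microglial and 5 of 6 endothelial and mural genes. In H3K27Ac of the PVT, 7 of 7 neuronal, 3 of 6 astrocyte, 2 of 7 oligodendrocyte, 0 of 6 microglial and 2 of 6 endothelial and mural genes had one. Gene counts do not separate the D181A allele from the normal one, so they give no check of the genotype labels.

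Promoter sequences were matched by symbol for 56 of the 75 members, with 68 annotated starts (RefSeq, GRCm38, the build called mm10). A C at the annotated start followed by at least 4 pyrimidines was found at 13 of 56 members (23.2%), at 3.01% of all 27025 genes with an entry and at 0 of 69 mitochondrial ribosomal protein genes. A looser rule, 8 pyrimidines in a row beginning within 10 bases of the start, was met by 41.1% of members, 12.2% of all genes and 7.25% of the mitochondrial set. By subunit, 20% of large and 28.6% of small subunit members met the strict rule. The 9 stretches below are starts with a strict tract and show how the pyrimidine run straddles the start. Each runs 5′ to 3′ from 50 bases before the annotated start to 20 bases from it. Capitals mark the longest run with at least 5 pyrimidines counted from 10 bases before the start to 10 after. A pyrimidine run lying mostly further upstream is left in lower case.
Rps6 (chr4:86857348-86857417, minus strand): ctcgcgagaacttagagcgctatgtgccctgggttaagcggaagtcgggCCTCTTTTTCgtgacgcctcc
Rps10 (chr17:27635225-27635294, minus strand): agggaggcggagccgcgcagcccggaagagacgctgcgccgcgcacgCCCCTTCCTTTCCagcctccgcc
Rps15a (chr7:118116128-118116197, minus strand): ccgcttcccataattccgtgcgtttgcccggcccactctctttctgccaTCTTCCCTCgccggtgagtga
Rps18 (chr17:33955646-33955715, minus strand): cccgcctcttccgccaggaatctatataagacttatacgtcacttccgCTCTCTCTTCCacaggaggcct
Rpl14 (chr9:120571467-120571536, plus strand): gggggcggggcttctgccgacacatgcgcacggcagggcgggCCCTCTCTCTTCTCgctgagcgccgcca
Rpl15 (chr14:18270967-18271036, minus strand): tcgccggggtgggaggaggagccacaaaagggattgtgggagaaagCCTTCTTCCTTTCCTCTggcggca
Rpl28 (chr7:4792915-4792984, plus strand): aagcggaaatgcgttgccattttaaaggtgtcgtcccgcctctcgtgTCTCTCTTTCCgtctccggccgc
Rpl35 (chr2:39005112-39005181, minus strand): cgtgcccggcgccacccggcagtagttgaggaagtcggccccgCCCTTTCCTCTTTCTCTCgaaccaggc
Rpl35a (chr16:33056432-33056501, plus strand): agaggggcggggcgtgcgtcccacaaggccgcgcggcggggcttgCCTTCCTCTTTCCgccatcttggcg

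Annotated starts can lie some bases from the base where transcription begins, and the next set shows how much the start regions vary. Rps26, called in RNA below, has its run 3 bases after the annotated start. Rps25, also called, has no run beginning within 10 bases of its start. A long pyrimidine stretch, left in lower case below, begins further upstream and ends shortly before that start. Rpl11 and Rpl5, the proteins of the 5S particle that bind Mdm2, and Rpl26 have no run at the start. Rpl10l, Rpl39l and Rpl3l are paralogs known for expression in testis or muscle, and within 10 bases of the start they hold at most a short run.
Rps26 (chr10:128626487-128626556, minus strand): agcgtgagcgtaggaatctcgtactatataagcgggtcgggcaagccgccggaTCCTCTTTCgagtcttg
Rps25 (chr9:44407664-44407733, plus strand): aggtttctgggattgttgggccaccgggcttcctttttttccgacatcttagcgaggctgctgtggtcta
Rpl11 (chr4:136053374-136053443, minus strand): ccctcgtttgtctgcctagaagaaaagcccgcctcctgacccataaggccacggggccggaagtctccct
Rpl5 (chr5:107900478-107900547, plus strand): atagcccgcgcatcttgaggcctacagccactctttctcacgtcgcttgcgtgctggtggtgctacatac
Rpl26 (chr11:68901516-68901585, plus strand): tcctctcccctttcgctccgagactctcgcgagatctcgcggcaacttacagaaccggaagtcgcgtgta
Rpl10l (chr12:66284382-66284451, minus strand): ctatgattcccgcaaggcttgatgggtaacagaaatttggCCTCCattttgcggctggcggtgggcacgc
Rpl39l (chr16:10170178-10170247, plus strand): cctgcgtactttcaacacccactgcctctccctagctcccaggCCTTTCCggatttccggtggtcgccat
Rpl3l (chr17:24727776-24727845, plus strand): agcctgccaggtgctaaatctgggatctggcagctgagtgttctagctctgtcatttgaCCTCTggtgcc

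Other short motifs were counted on both strands of windows of 300 bases, from 250 before to 50 after each start. CCGGAAG, a core bound by ETS factors such as GABP, was in the windows of 39.3% of members, 37.7% of mitochondrial ribosomal protein genes and 9.93% of all genes. GGGCGG, bound by Sp and KLF factors, was in 57.1%, 49.3% and 38.2% of them. AAGATGG, bound by YY1, was in 17.9%, 18.8% and 7.28%. TATAAA was in 8.93% of members and 15.7% of all genes, CACGTG in 10.7% and 8.09%, and GCATGCG in 7.14% and 4.01%. The median window of a member start was 57.3% G and C with 21 CpG, against 52.7% and 7 CpG over all genes, while the mitochondrial set had 58.7% and 21 CpG. The members and the mitochondrial set thus had near-equal shares of CCGGAAG and AAGATGG and the same median CpG count, and unequal shares of the pyrimidine run; neither was tested. A match of these letters is a description of the sequence only.

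Nearly all members had accessible gene ends in sorted PVT nuclei. A gene-end peak, one no more than 1000 bp from the start or the end of a gene, was present for 68 of the 75 members in ATAC (90.7%), for 92.3% of mitochondrial ribosomal protein genes and for 60.4% of all autosomal protein-coding genes. The 7 members without one were Rpl10l, Rpl17, Rpl22, Rpl32l, Rpl39l, Rps2 and Rps27l. Rpl10l and Rpl39l had no gene-end peak in any of the 5 tables. Of the others, Rpl22, Rps2 and Rps27l had an ATAC peak within 1000 bp of a RefSeq start. In H3K27Ac the share with a peak was 88% in PVT, 69.3% in COR, 58.7% in CP and 76% in NAC. The same share over all autosomal protein-coding genes was 56.5%, 53.8%, 42.1% and 51.6%. There were 26 members (34.7%) with a peak in all 5 tables, against 22.2% of all genes, among them the small subunit genes Rps14, Rps15a and Rps27a and the large subunit genes Rpl3, Rpl14, Rpl31 and Rpl36.

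**Figure D1:**
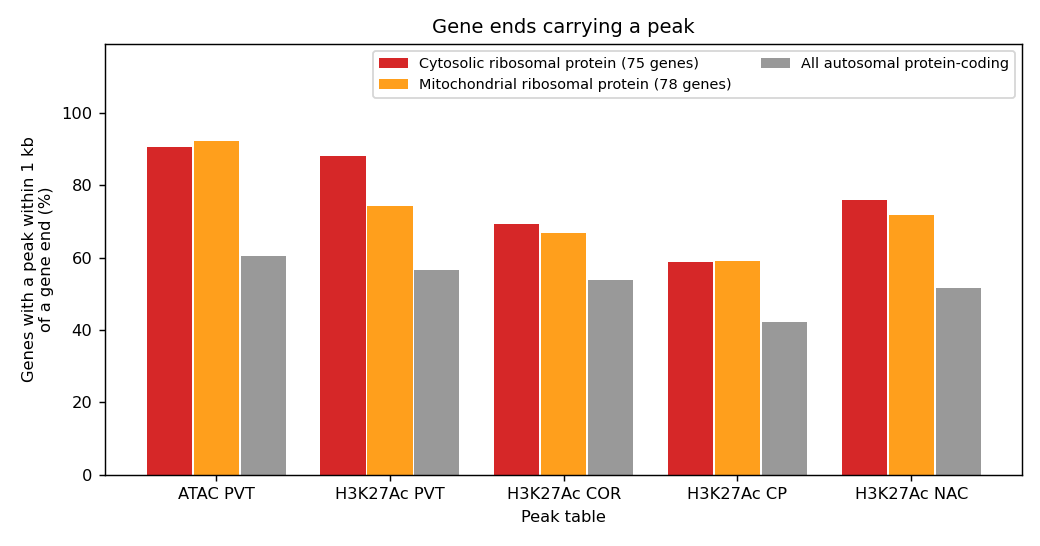
Share of genes (percent, y axis) with a peak within 1 kb of a gene end in each of the 5 peak tables (x axis), for the members, the mitochondrial ribosomal protein genes and all autosomal protein-coding genes. Members stand at 90.7% in ATAC and 88% in H3K27Ac of the PVT and at 58.7% in CP, above all genes in each table.

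At most members with an annotated start, an ATAC peak sat on it. Of the 56 members with a RefSeq start, 52 had an ATAC peak within 1000 bp of it (92.9%, against 48.4% of 27025 genes), and the start lay inside the peak in 48 of those 52 (92.3%, against 71.2%). The median position of the peak centre relative to the start was -38.8 bp for members and -38 bp over all genes, upstream being negative. Member peaks were 323 to 651 bp long, with a median of 367 bp. H3K27Ac peaks were wider and less centred: in the PVT their median length was 1304 bp and the start lay inside a peak in 36 of 47 members (76.6%). In CP the median length was only 346 bp, and the start lay inside a peak in 13 of 32 (40.6%).

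**Figure D2:**
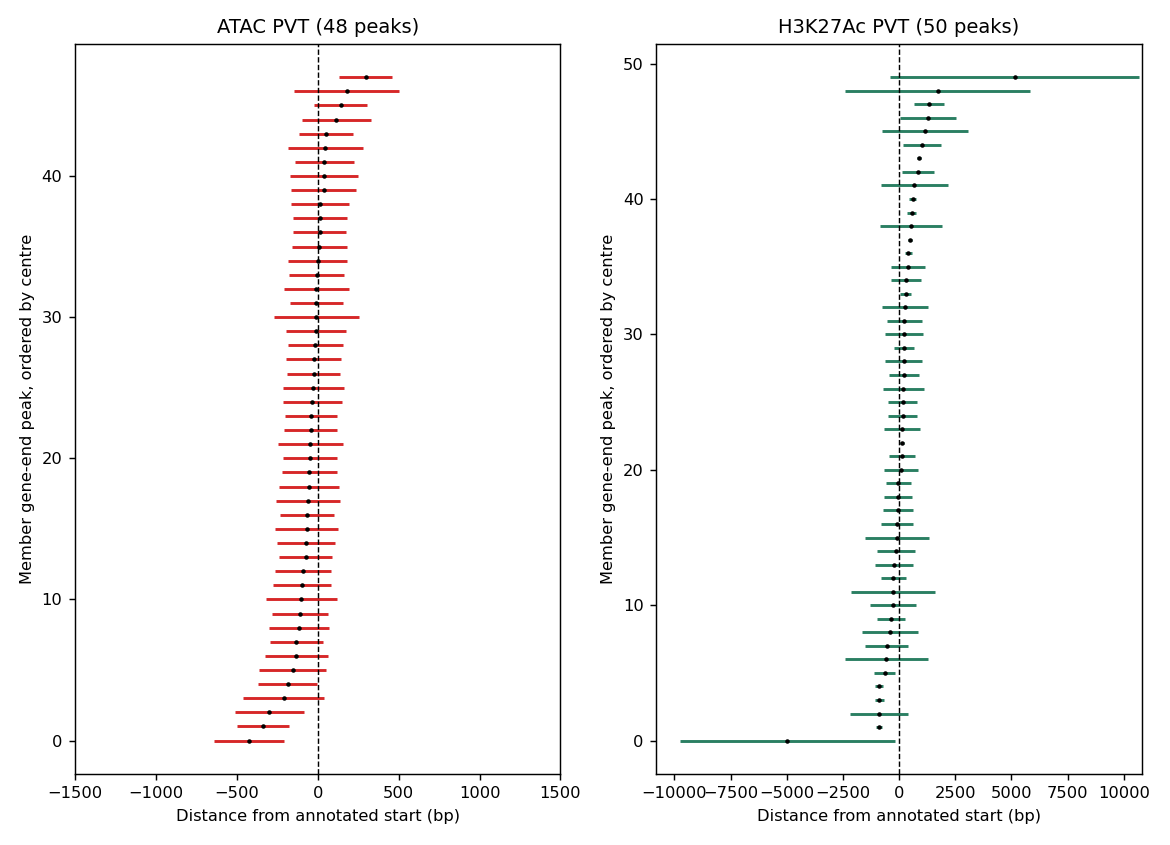
Extent of member gene-end peaks (horizontal line) and their centre (point) relative to the annotated start, in bp along the x axis, for ATAC and H3K27Ac in the PVT. Only peaks within 1000 bp of an annotated start are drawn, 48 of 77 in ATAC and 50 of 89 in H3K27Ac. Peaks are ordered by centre along the y axis. Among the peaks drawn, those of ATAC cluster on the start and those of H3K27Ac spread around it. Median lengths over all member peaks, drawn or not, were 367 bp in ATAC and 1304 bp in H3K27Ac.

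The gene ends were also more accessible than most. The median member peak held 67.8 CPM (the usual unit of counts scaled to library size) per kilobase of peak in WT, against 47.7 for mitochondrial ribosomal protein genes and 39.6 over all autosomal protein-coding genes. No test was made of this difference, since genes are not replicates. Levels among members ranged from 10.8 to 170 CPM per kilobase. The order began with Rps29 (204.8 and 135.5 in the WT libraries), whose peak was at chr12:69159073-69159430. Rpl27a (171.6 and 118.2), Rpl15 (149.2 and 137.7), Rpl36 (186.3 and 87.1) and Rpl22l1 (153.0 and 116.0) followed. The ranges of the 2 WT libraries overlapped among all 5, so their order is not resolved. Rpl15 is a large subunit protein bound early in assembly, and Rpl22l1 is a paralog that can replace Rpl22. The lowest were both peaks of Rps9, a second one (10.1 and 11.5) and the one at its start (21.6 and 18.01), and a second peak of Rpl11 (18.95 and 9.17), then Rpl4 (15.1 and 26.4) and Rps19 (28.5 and 30.4). Of the 77 member peaks, 21 lay within 1 kb of another gene as well, and 1 was shared by 2 members, so the signal there cannot be assigned to 1 gene.

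**Figure D3:**
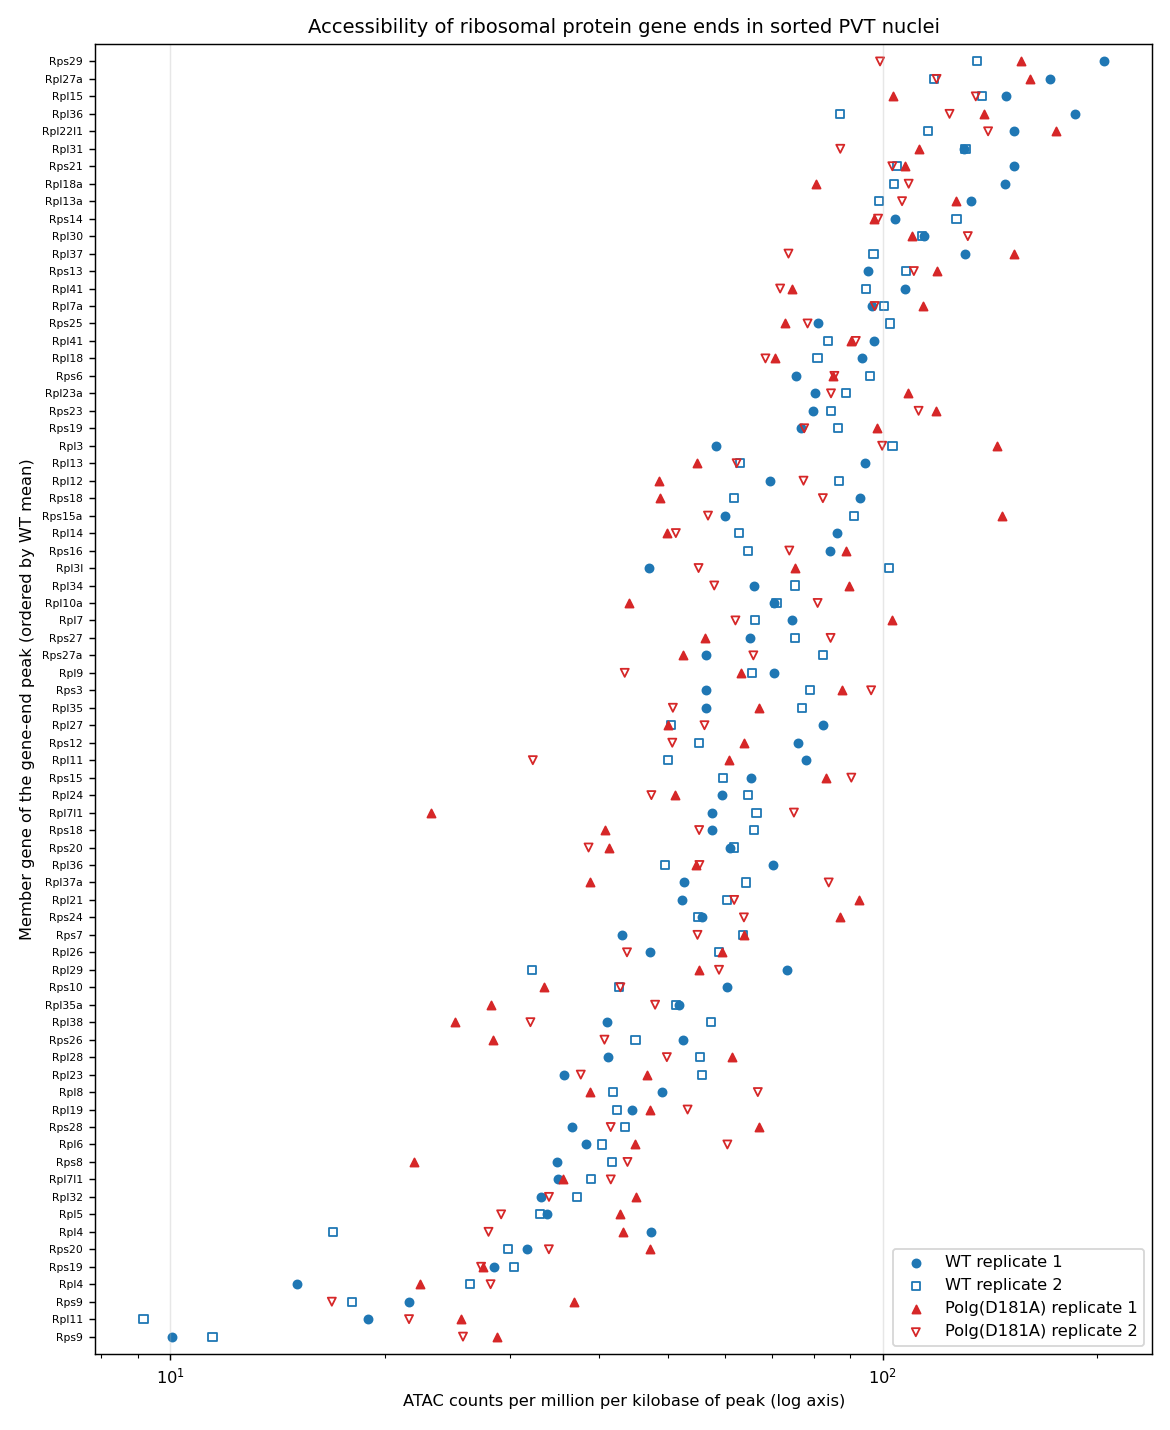
ATAC signal in CPM per kilobase of peak (x axis, log scale) at 74 of the 77 member gene-end peaks (y axis, ordered by WT mean), with 1 point for each WT and Polg(D181A) library. WT means fall from 170 at Rps29 to 10.8 at the second Rps9 peak, and the points of both genotypes intermingle.

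Genotype did not shift accessibility at any member past the test. None of the 77 peaks was called between Polg(D181A) and WT by edgeR's quasi-likelihood test with Benjamini-Hochberg adjustment below 0.05, where 0.00114% of all peaks tested were called, 1 of 87600. DESeq2 also called 0 of the 77, and 0.00334% of all peaks. At an unadjusted p under 0.05 there was 1 member peak (1.30%), against 6.13% of all peaks. The median log2 difference was -0.01 for members and -0.02 over all autosomal protein-coding gene ends, with 38 peaks higher and 39 lower, and 76 of 77 differed by less than 1 on the log2 scale. The median standard error was 0.34. The astrocyte markers with a peak, 3 of 6, summed to 14.99 and 38.1 CPM in WT and 16.8 and 11.7 in Polg(D181A), and the 1 microglial gene to 2.37 and 7.78 against 2.07 and 1.33. WT replicate 2 was highest in both, and their part in the member values was not tested. Both genotypes were separated, with no overlap of the 2 libraries against the other 2, at 30 member peaks, 13 of them higher in Polg(D181A), where 41.1% of all peaks were separated.

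The member of smallest p was Rps9, a small subunit protein of the mRNA entry region. Its second peak, at chr7:3704175-3704497, held 3.25 and 3.70 CPM in WT and 9.30 and 8.32 CPM in Polg(D181A), a log2 difference of 1.35 (SE 0.63, adjusted p = 0.798, edgeR). It rested on 10 to 75 counts a library. Rps20 gave 25.6 and 25.9 in WT and 17.3 and 16.2 in Polg(D181A). For Rpl38, 13.5 and 18.9 CPM stood against 8.27 and 10.5. Rpl3 overlapped between genotypes, at 19.2 and 34.1 against 47.8 and 32.95 CPM. All 4 had an adjusted p of 0.798. The subunits did not part: the median log2 difference was -0.04 for 47 large and 0.02 for 31 small subunit peaks, each set counting the shared peak. At Rps6, the S6 kinase substrate, values were 32.1 and 40.7 CPM in WT and 36.2 and 36.3 in Polg(D181A), a log2 difference of 0.00 (SE 0.31).

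**Figure D4:**
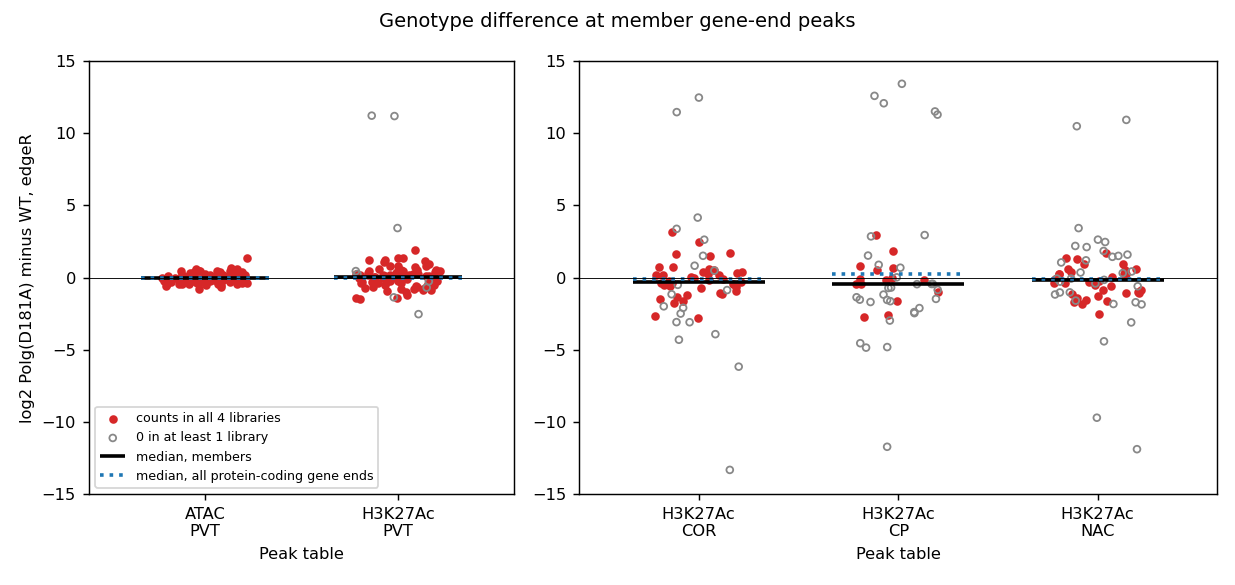
Log2 difference between Polg(D181A) and WT (y axis, edgeR) at member gene-end peaks in each table (x axis); each point is a peak, open where a library had 0 counts, and solid and dotted bars are the medians of members and of all protein-coding gene ends. ATAC values lie between -0.75 and 1.35, while H3K27Ac values outside the PVT reach past 10 in both directions where 1 genotype had 0 counts.

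H3K27Ac in the PVT gave the same reading with wider errors. None of 88 member peaks tested was called (0% of 121536 peaks), and 3 had an unadjusted p under 0.05 (3.41%, against 8.09% of all peaks). The median log2 difference was 0.08 for members, with a median standard error of 0.54, and 0.00 over all gene ends. Rpl41, the shortest ribosomal protein, had the smallest p: its peak at chr10:128547006-128549957, which also lies within 1 kb of Zc3h10, held 36.8 and 34.7 CPM in WT and 19.4 and 16.1 in Polg(D181A), a log2 difference of -1.01 (SE 0.28, adjusted p = 0.556, edgeR). At Rps19, mutated in Diamond-Blackfan anaemia, 10.4 and 13.4 CPM stood against 5.63 and 7.32. Rps16 had 10.4 and 19.2 CPM in WT and 6.47 and 9.29 in Polg(D181A). The groups did not overlap at any of these 3, as at 46% of all peaks.

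At 2 narrow peaks the WT libraries had no count. A peak of 229 bp at Rpl22l1 and one of 151 bp at Rpl37 held 0 counts in both WT libraries and 123 and 408, and 262 and 167, in Polg(D181A). Their adjusted p was 0.556 (edgeR). DESeq2 called both and the Rpl41 peak, where it called 10.7% of all peaks. The other peak of Rpl22l1, at its start, held 8.88 and 5.51 CPM in WT against 11.95 and 8.36 in Polg(D181A), which overlapped the WT range. By level per kilobase the PVT order began with Rpl8 (11.8 and 21.8), Rps3 (9.19 and 19.9), Rpl3 (17.2 and 11.8), the Rpl22l1 start (17.5 and 10.8) and Rpl34 (12.3 and 15.9), none separated from the next by the 2 libraries. Rps24, Rps7 and Rpl7l1 stood lowest of the peaks with WT counts. Across 64 members with both, ATAC and H3K27Ac levels in WT PVT had a Spearman's rho of 0.08, against 0.27 over 10405 genes. That value describes genes of the same libraries and is not a replicated relation.

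Outside the PVT the H3K27Ac values were sparse, at the members and over all gene ends. Member peaks with 0 counts numbered 2 to 5 of 89 in the PVT libraries, 3 to 11 of 61 in COR, 5 to 24 of 69 in NAC and 10 to 37 of 60 in CP. The shallowest libraries stood highest, 37 of 60 in CP WT replicate 2 and 24 of 69 in NAC WT replicate 2, with 12048787 and 6415127 counts in all. These are 61.7% and 34.8% of member peaks, against 61.8% and 41.0% over all autosomal protein-coding gene ends. The rank correlation of member levels between libraries was 0.66 to 0.81 in PVT and 0.72 to 0.82 in ATAC, but 0.18 to 0.39 in COR, 0.28 to 0.57 in CP and 0.13 to 0.54 in NAC. Over all protein-coding genes it was 0.84 to 0.89 in PVT and 0.85 to 0.90 in ATAC. In COR, CP and NAC it was 0.43 to 0.64, 0.25 to 0.53 and 0.40 to 0.66. Replicates of 1 group could differ widely: the CP peaks of highest WT level, at Rpl13 and Rpl28, held 0 and 56.1 CPM and 2.15 and 62.5 CPM in the WT libraries.

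No member was called in COR, CP or NAC either, with 59, 47 and 67 member peaks tested. The background called by edgeR was 0% in COR, 0% in CP and 0.00476% in NAC, 5 of 105058 peaks. DESeq2 called 7, 12 and 1 member peaks, where it called 26.7%, 34.9% and 2.61% of all peaks. The genotypes did not overlap at 17 of 61 member peaks in COR, 17 of 60 in CP and 26 of 69 in NAC, against 39.5%, 27.7% and 31.8% of all peaks. Unadjusted p under 0.05 was reached by 2 member peaks in each region: 3.39% in COR against 9.29% of all peaks, 4.26% against 6.69% in CP and 2.99% against 1.6% in NAC. The median log2 differences were -0.26, -0.45 and -0.15, against -0.11, 0.25 and -0.07 over all gene ends, with median standard errors of 2.25, 4.06 and 2.28. In COR the subunits had medians of opposite sign, 0.18 for 33 large and -0.55 for 26 small subunit peaks, and in NAC -0.40 for 37 and 0.26 for 30, a difference that was not tested. The medians over all members are the same when peaks at 0 in 1 genotype are set to the bound that 3 counts over the group allow.

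The members of smallest p in these regions were mostly peaks present in 1 genotype only. In COR, Rps24 held 5.46 and 15.9 CPM in WT and 0 in both Polg(D181A) libraries, whereas Rpl37a held 0 in WT and 5.29 and 6.66 CPM in Polg(D181A). Rpl30 had counts throughout, 8.78 and 7.77 CPM in WT and 31.8 and 23.4 in Polg(D181A), a log2 difference of 1.74 (SE 0.89, adjusted p = 0.593, edgeR). At Rpl14, 10.8 and 30.3 CPM in WT stood against 2.12 and 3.89, and Rpl34 held 0 in WT and 4.75 and 1.19 in Polg(D181A).

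In CP, Rpl23a (0 against 45.6 and 23.6 CPM), Rpl23 (16.6 and 22.2), Rps29 (13.8 and 13.4) and Rpl27a (10.6 and 7.79) had a peak with counts in Polg(D181A) alone, and Rpl14 one in WT alone (10.8 and 10.2). All 5 had an adjusted p of 0.373 (edgeR). In NAC, a peak of Rpl29 that also lies near Acy1 held 67.3 and 98.0 CPM in WT and 8.21 and 20.1 in Polg(D181A), a log2 difference of -2.55 (SE 0.84, adjusted p = 0.998, edgeR), which is no call. Rpl13 held 23.0 and 12.6 CPM in WT and 0 in Polg(D181A). A peak of Rps12 and one of Rps7 had counts only in Polg(D181A). Other CP peaks of Rpl27a and Rpl23 went otherwise. A longer peak of Rpl27a held 32.2 and 76.1 CPM in WT and 0 and 3.75 in Polg(D181A), and a second Rpl23 peak held 44.9 and 0 against 1.52 and 14.1. Rps29 in NAC had counts in all 4 libraries, 17.9 and 17.5 CPM in WT and 29.1 and 23.2 in Polg(D181A). No member had an adjusted p below 0.998 in NAC (edgeR), and the genotypes did not overlap at 31.8% of all NAC peaks.

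Between regions, the 26 members with a peak in all 4 H3K27Ac tables were compared in 1 model of 16 libraries over 5029 genes. PVT against COR called 0 members (1.39% of genes), PVT against the mean of CP and NAC 0 (7.12%), COR against that mean 0 (2.96%), and the region by genotype interaction 0 (0.239%). CP against NAC called 1 member, Rpl14, where 4% of genes were called. Rpl14, a large subunit protein, had gene-end sums of 68.6 and 79.0 CPM in CP WT and 0 in both CP Polg(D181A) libraries. In NAC it had 78.2 and 230.1 CPM in WT and 30.7 and 89.8 in Polg(D181A). The fitted log2 difference was -6.56 (SE 1.53, adjusted p = 0.0345, edgeR). CP WT replicate 2 lay within the NAC WT range and CP WT replicate 1 below it. These are sums over peaks called separately in each region, and they move with the length called: 251 bp in CP and 1340 bp in NAC. With an offset for peak length the adjusted p was 0.295 and no member was called, where 0.0597% of genes were. Rpl14 stayed past the threshold in only 4 of the 16 fits that left out 1 library, with adjusted p from 0.0136 to 0.0735, and a replicate block gave 0.0965 (edgeR). That offset left 0 members called for COR against the striatal mean too (0.0398% of genes).

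The member medians of the region differences changed with the scaling by peak length. PVT against the striatal mean had a median of 0.86 for members and 0.46 over all 5029 genes, but -0.52 and -0.43 with the length offset. PVT against COR went from 0.54 (all genes 0.08) to 0.05 (-0.13), and COR against the striatal mean from 0.17 (0.35) to -0.03 (-0.32). CP against NAC went from 0.00 (-0.30) to 0.23 (0.47). The summed member peaks had a median length of 1873 bp in PVT, 1600 bp in COR, 1570 bp in NAC and 808 bp in CP. The sign of the member median turned for PVT and for COR against the striatal mean, and PVT against COR kept its sign with a smaller value. Single libraries moved these medians too. Without CP WT replicate 1 they were 1.72 for PVT and 1.68 for COR against the striatal mean and -4.15 for CP against NAC, with 1.83, 1.53 and -2.56 over all genes. Without NAC WT replicate 1 they were 1.45, 1.18 and 1.11, and without COR WT replicate 1 COR against the striatal mean had -0.03.

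In RNA most members had few counts. The median member had 0.0741 CPM over the 20 libraries, against 0.206 for mitochondrial ribosomal protein genes and 0.844 for all autosomal protein-coding genes. Per kilobase of gene span the same medians were 0.0196, 0.0264 and 0.0518. Sums went the other way: the members' summed CPM per summed kilobase was 0.300 to 5.95 times that of all protein-coding genes. The median was 1.38, and the ratio was above 1 in 16 of 20 libraries. Gene span includes introns, and its median was 3.18 kb for members and 18.1 kb for all autosomal protein-coding genes. The sums also rested on few members: the highest member held 7.46% to 95.7% of a library's member counts. In the WT library at 5.95, Rpl31 alone held 79.2%. A member had a count in a median of 17 of 20 libraries, and 12 had one in every library. From 36 to 72 of the 75 members had a count in a library, and the members together took 0.00301% to 0.110% of its counts. In bulk samples fewer cells of a type and less RNA per cell cannot be told apart. The labels give total RNA as the molecule, and the counting rule for reads that match several places was not given in the sources used here. Rows named as pseudogenes of these genes held 0.00406 to 2.70 times the members' CPM and exceeded them in 2 libraries, so reads may have been divided between copies.

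Single libraries carried most of a member's counts. The median member had 64.1% of its summed CPM in 1 of the 20 libraries, against 43.4% over all autosomal protein-coding genes and 49.9% for the mitochondrial set. Rps13, at 991 CPM in WT library c, had 98.1% of its CPM there, and Rpl31, at 915 CPM in WT library b, had 99.6%. Library letters only name the 4 libraries of a group, and a letter does not pair libraries across groups. There were 39 members that reached 10 CPM in at least 1 library, while only 4 had a median of at least 1 CPM. These were Rps3 with 10.2, Rpl11 with 1.57, Rps15a with 1.12 and Rpl5 with 1.003 CPM. Rps3, a small subunit protein that also acts in DNA repair, had values of 0.0346, 212, 830 and 2.01 CPM in WT and 44.4, 8.91, 0.143 and 3.11 in euthymic COX-positive Polg(D181A). Rpl11 varied less in these groups: 1.98, 0.757, 5.04 and 1.96 CPM in WT, and 0.532 to 2.52 in euthymic COX-positive Polg(D181A). Rpl3, a large subunit protein, lay between 0.335 and 9.36 CPM in every library and had 28.6% of its CPM in the highest.

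**Figure D5:**
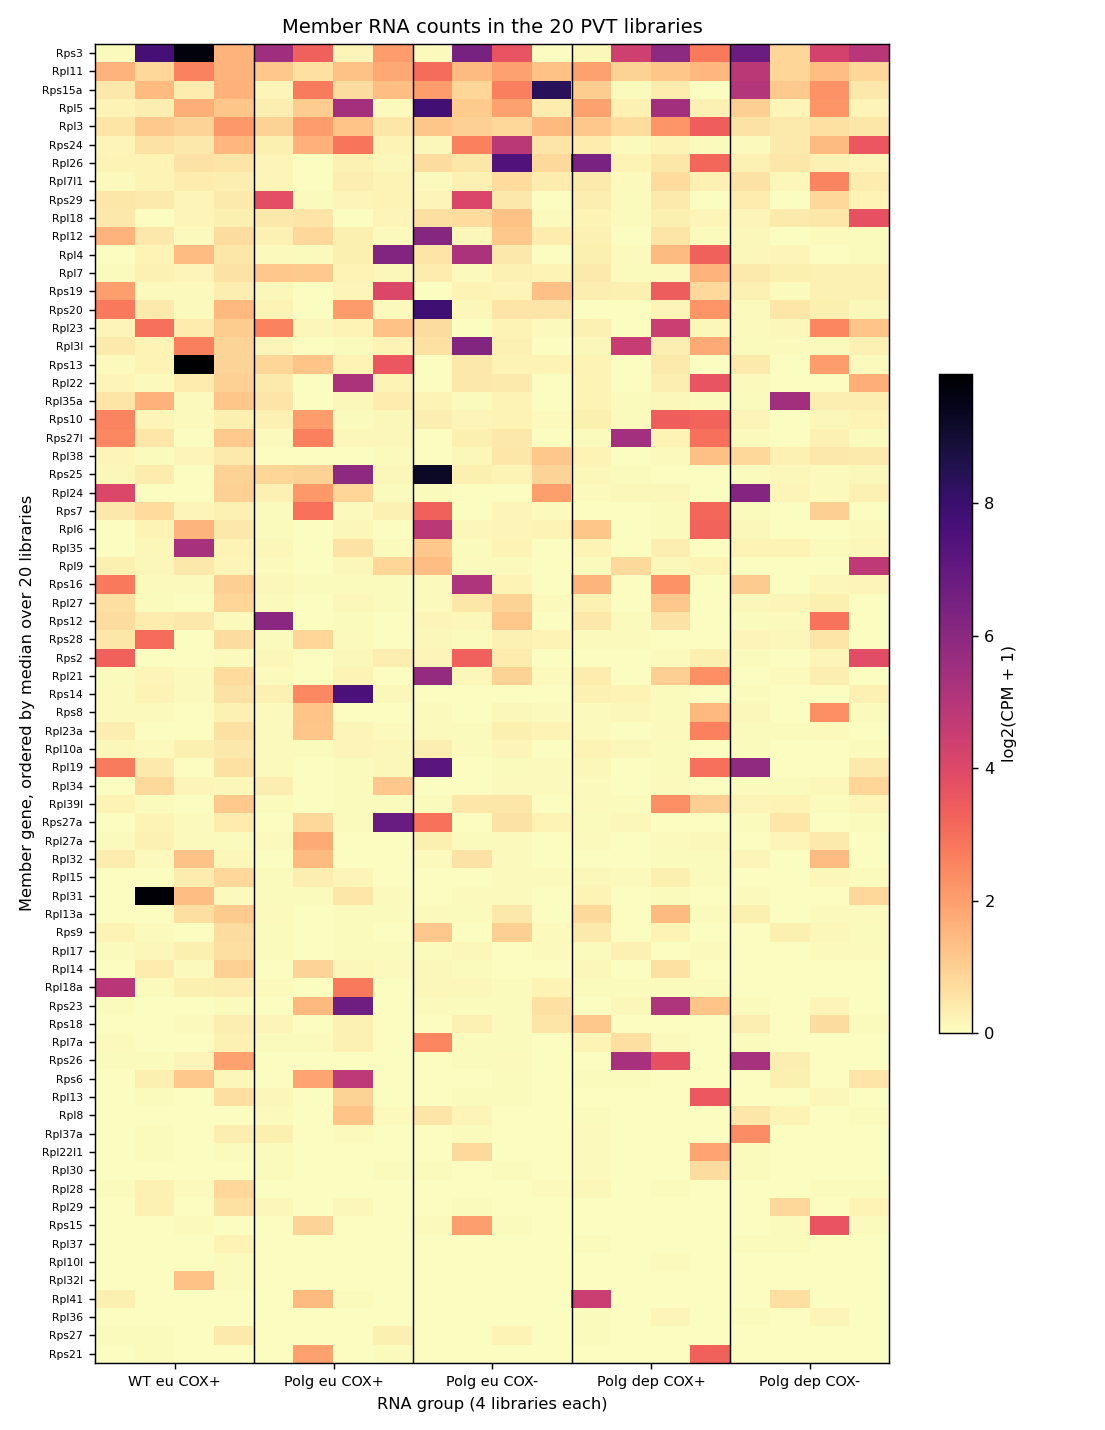
RNA level as log2(CPM + 1) (colour) of 72 of the 75 members (rows, ordered by the median over the 20 libraries) in the 5 groups of 4 PVT libraries (columns). Most cells are at or near 0, and isolated cells are high, such as Rps13 at 991 CPM in 1 WT library and Rps25 at 599 CPM in 1 euthymic COX-negative library.

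Of the 75 members, 53 passed the filter on low counts and were tested among 28446 genes. Depressive against euthymic Polg(D181A), averaged over both COX classes, was the only one of 8 contrasts with a member called: 3 of 53, 1 higher and 2 lower, where 1.24% of all genes were called, 0.605% higher and 0.64% lower. All 3 belong to the small subunit. Rps26, at the mRNA exit channel, had 0 to 0.0231 CPM in the 4 euthymic COX-positive and 0 to 0.0603 in the 4 euthymic COX-negative libraries. In depressive libraries it had 0, 38.2, 12.5 and 0.0108 CPM when COX-positive and 40.1, 0.263, 0.0268 and 0.0132 when COX-negative. The groups overlapped, and 3 of 8 depressive libraries lay above 10 CPM. Its log2 difference was 8.71 (SE 1.90, adjusted p = 0.0485, edgeR).

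Rps25, which many viral and some cellular internal ribosome entry sites need, went the other way. It had 0.765, 0.902, 59.3 and 0.0876 CPM in euthymic COX-positive and 599, 0.212, 0.151 and 0.82 in euthymic COX-negative Polg(D181A) libraries. The 8 depressive libraries lay between 0 and 0.11 CPM. The log2 difference was -9.70 (SE 1.87, adjusted p = 0.0485, edgeR), and 7 of 8 euthymic libraries lay above every depressive one. Rps27a, made as a fusion with ubiquitin, had 0, 0.74, 0.0359 and 114 CPM and 6.68, 0, 0.483 and 0.149 CPM in the euthymic groups. Its depressive libraries lay between 0 and 0.383 CPM and overlapped them. The log2 difference was -6.74 (SE 1.73, adjusted p = 0.0491, edgeR).

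Each of these 3 calls was lost when any 1 of the 16 Polg(D181A) libraries was left out, with adjusted p from 0.0515 to 0.0699 for Rps25, 0.0531 to 0.0699 for Rps26 and 0.0578 to 0.146 for Rps27a. All 3 lay near the threshold. The microglial markers stood higher in the same contrast, with a median log2 difference of 2.34 and 3 of 6 at an unadjusted p under 0.05, and their part in these calls was not tested. In WT the levels were 0.0461, 0.0315, 0.142 and 2.89 CPM for Rps26, 0 to 0.871 for Rps25 and 0.0115 to 0.281 for Rps27a. No ATAC call was made at the same genes in the PVT: ATAC at Rps26 held 22.5 and 19.3 CPM in WT and 12.1 and 17.4 in Polg(D181A) (log2 -0.49, SE 0.37), with adjusted p of 0.807. At Rps25 it held 40.7 and 51.5 against 36.7 and 39.4, and at Rps27a 34.7 and 50.7 against 32.3 and 40.5 CPM. Chromatin was not split by behavioural state, so the 2 assays do not test the same difference.

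The other 7 contrasts called no member and no gene with edgeR (0% of 28446). DESeq2 called 1 to 5 members in each of them, among 1126 to 2534 genes of 18818 to 22712 with an adjusted p. Fewer than the 53 members had one. For state it called 4 of 32 members within COX-positive (1730 of 22712 genes) and 1 of 18 within COX-negative (2534 of 18818). For COX class averaged over states it called 4 of 26 (2193 of 21333). Euthymic COX-positive Polg(D181A) against WT had 16 of 53 members with an unadjusted p under 0.05, against 15.3% of all genes. The smallest p belonged to Rpl31 (log2 -10.71, SE 2.82, adjusted p = 0.187, edgeR), which rested on the 915 CPM of 1 WT library, since the other 7 lay between 0 and 1.56 CPM. Rps14 and Rps23 followed, with 189 and 103 CPM in the same euthymic COX-positive Polg(D181A) library, c.

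COX-negative against COX-positive cells gave 18 of 53 members with an unadjusted p under 0.05 in the euthymic state, against 21.2% of all genes. In the depressive state they gave 21 of 53, against 19.9% of all genes. In the euthymic state Rps14 had 0 counts in all 4 COX-negative libraries and 0.191, 4.48, 189 and 0.0876 CPM in the COX-positive ones, with adjusted p = 0.123 (edgeR). Rpl26, which binds p53 mRNA, had 0.595, 0.388, 176 and 0.671 CPM against 0.118, 0, 0.197 and 0.0876. Rps6 had 0 to 0.0302 CPM in COX-negative and 0.0147, 2.70, 26.5 and 0 CPM in COX-positive libraries. In the depressive state the smallest p were those of Rpl35a (log2 6.91), Rps27l (log2 -7.34) and Rpl26 (log2 -6.64), with an adjusted p of 0.132 each. Averaged over states, 19 of 53 members had an unadjusted p under 0.05, against 22.8% of all genes. Rps14, Rps23 and Rps15a were first, with adjusted p of 0.0538, 0.0538 and 0.0556 (edgeR).

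Depressive against euthymic state in COX-positive Polg(D181A) gave 18 of 53 members with an unadjusted p under 0.05 (34.0%), against 17.5% of all genes. In COX-negative Polg(D181A) it gave 15 of 53 (28.3%), against 22.6% of all genes. Rps14, Rps27a and Rps6 were first among COX-positive, each with adjusted p = 0.136, and Rps25, Rpl12 and Rpl35a among COX-negative, each with adjusted p = 0.0862 (edgeR). The interaction of COX class and state had 18 of 53, against 22.3% of all genes, led by Rpl26, Rpl3l and Rpl6 with adjusted p = 0.0534 each (edgeR). Several leading members were high in 1 library of 1 group, such as Rpl26 at 176 CPM, Rps25 at 599 CPM and Rps14 at 189 CPM. The contrasts share the euthymic or depressive Polg(D181A) groups, so their member values are not independent of each other.

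Among the paralogs, Rpl22l1 had an ATAC peak of 50.3 and 38.1 CPM in WT, and Rpl7l1 had 2 peaks, of 21.6 and 24.1 and of 19.2 and 22.2 CPM. Rpl3l, the muscle paralog, had 16.7 and 36.3 CPM, but that peak also lies within 1 kb of Msrb1. It is not within 1000 bp of an annotated start of Rpl3l. Rpl10l and Rpl39l had none. In RNA, Rpl10l had a count in 2 of 20 libraries and a median of 0 CPM, and Rpl39l a median of 0.0636 CPM, which is near the median of all members. Rpl22l1, with its open start, had a median of 0.0124 CPM.

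The other genes of the pathway were read by lists: ribosome assembly factors (52 genes), RNA polymerase I (17), translation initiation (36), elongation and other TOP mRNAs (13), mTORC1 and TOP control (17), the 5S particle and p53 surveillance (6), and the 8 large and 5 small subunit proteins outside the rule. In ATAC and the 4 H3K27Ac tables none of them had a gene-end peak called between genotypes. The median ATAC log2 difference was -0.07 for 63 assembly factor peaks, 0.03 for 44 initiation factor peaks and 0.10 for 9 peaks of the large subunit proteins outside the rule. In RNA 1 of 36 initiation factors was called, Eif4h, a helper of the Eif4a helicase, with a log2 difference of 5.20 (SE 1.32, adjusted p = 0.0491, edgeR) in depressive against euthymic Polg(D181A). No gene of the other lists was called in any of the 8 contrasts. In that same contrast 1 of 7 oligodendrocyte markers was called, Olig2, with a log2 difference of 6.68 (SE 1.69, adjusted p = 0.0485, edgeR), and none of the neuronal, astrocyte, microglial or endothelial and mural markers was called. The summed neuronal markers ran from 142 to 1609 CPM in WT and from 295 to 2392 CPM across the Polg(D181A) groups, and the oligodendrocyte markers from 4.10 to 281 CPM. The summed microglial markers ran from 63.0 to 263 CPM in depressive and from 4.77 to 82.9 in euthymic COX-negative libraries, and from 49.5 to 85.5 and 32.7 to 72.8 in the COX-positive ones. Every marker of the 5 cell type lists had a count in each group, and their part in the member values was not tested.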

How the data were processed

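The authors deposited raw counts per peak for ATAC and for H3K27Ac in each of 4 regions, with 1 peak set per table, and raw counts per gene for RNA. Per the submitters' processing notes STAR, HOMER, Subread, featureCounts and DESeq2 were used with build mm10; their order, settings and versions were not given in the sources used here. The 4 input samples were not used. Members, lists and tests were chosen with earlier results of these data known.

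Counts were fitted with edgeR 4.0.16 (R 4.3.3): TMM scaling, filterByExpr, robust quasi-likelihood test, Benjamini-Hochberg adjustment over all features, threshold 0.05. Each chromatin table was fitted alone (2 WT, 2 Polg(D181A)), the 20 RNA libraries as 5 group means, and H3K27Ac gene-end sums over 5029 genes as region by genotype. CPM are scaled to TMM-adjusted library sizes after the filter. A gene-end peak lies within 1000 bp of either end of the gene. RNA columns carry no replicate number, so libraries a to d are only names. DESeq2 1.42.0, other scalings, filters and windows, a replicate block and leaving out each library were alternatives, and peaks within 1000 bp of a RefSeq start were added after seeing the data. The tests were also run on simulated counts, but with less spread than the chromatin libraries had. That run therefore does not measure what the tests could find here.

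Named genes are, in each chromatin table, members past the threshold (up to 8 a direction), else the 5 of smallest p, and members without a gene-end peak; in each RNA contrast, members past the threshold (up to 6 a direction), else the 3 of smallest p; in each region contrast up to 5 a direction past it; the 5 highest and 5 lowest per kilobase; the paralogs and Rpl5, Rpl11, Rps6, Rps14, Rps25, Rps26, Rps27a and Rpl26; and up to 3 passing genes of a pathway list. Rps13, Rps3, Rps15a and Rpl3 in RNA, and Rpl19 in H3K27Ac, were named after their values were seen. A few members are not reported by name here. Promoters come from RefSeq GRCm38.p6.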

Additional observations from a re-analysis of the deposited data

Results flagged for a closer look

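Among 60 groups of 4 RNA libraries examined, 10 had a highest or lowest library whose gap to the next, as a share of the group's range, exceeded Dixon's critical value. Chance gives about 1 in 20 if values are normally distributed, which was not checked here. In depressive COX-positive Polg(D181A) the highest library gave the members 0.0561% of its counts. In euthymic COX-negative Polg(D181A) the lowest library had a count at only 36 of the 75 members. In WT the highest library had a median member level of 0.365 CPM.

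The other 7 concern single genes, as log2(CPM + 1) of the highest library. Rps25 stood at 5.91 in euthymic COX-positive and at 9.23 in euthymic COX-negative Polg(D181A). Rps26 stood at 1.96 in WT and at 5.36 in depressive COX-negative Polg(D181A). Rps27a stood at 6.85 in euthymic COX-positive and at 0.47 in depressive COX-negative Polg(D181A). Rpl11 stood at 4.83 in depressive COX-negative Polg(D181A). Only Rps3, Rpl11, Rps15a, Rpl5, Rpl3, Rps25, Rps26 and Rps27a were examined singly. The last 3 are the members called between behavioural states, so their place among the flags follows in part from that choice and adds no support.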

How the results depend on the processing

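No gene named for a call changed direction under an alternative run. For CP against NAC, leaving out CP Polg(D181A) replicate 1 gave 1 member higher, Rpl19, in place of 1 lower, Rpl14. DESeq2 called more members than edgeR in most comparisons: 3 in H3K27Ac of the PVT, 7 in COR, 12 in CP and 1 in NAC between genotypes, where it called 10.7%, 26.7%, 34.9% and 2.61% of all peaks, and 0 in ATAC. In the region model, with 26 members tested, it called 1 member for PVT against COR and 5 for CP against NAC. It called 7 for COR and 4 for PVT against the striatal mean, and 1 for region by genotype. Over all 5029 genes it called 443, 944, 1005, 1128 and 339 in the same order. In RNA it called 1 for genotype, 3 and 5 for COX class in the euthymic and depressive state and 4 averaged, 4 and 1 for state within COX-positive and COX-negative, 2 for the interaction and 2 for state averaged, 1 higher and 1 lower, where edgeR called 3. Rps26 was one of them, and DESeq2 gave no p for Rps25 and Rps27a.

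With total counts as the only scaling, edgeR called 1 member in H3K27Ac of the NAC, 2 for COX class averaged and 1 for state averaged. Over all genes it called 72 of 28446 for COX class averaged. With DESeq2's size factors it called 3 for COX class averaged, among 377 of 28446 genes, and 5 for the interaction. With no filter the counts were 2 for COX class in the euthymic state, 5 averaged, 2 for state within COX-negative and 7 for the interaction. State within COX-negative then had 1170 of 50926 genes called. Requiring 10 counts in 8 libraries gave 2 for COX class averaged, among 283 of 22233 genes, 0 for state averaged and 2 for the interaction. Fitting only the groups of the contrast gave 0 for state averaged. CP against NAC gave 0 members with the length offset, where 3 of 5029 genes were called. With a window of 2000 bp it gave 2, where 306 of 6658 genes were called. The other counts here are given without the share over all genes, so they do not show whether the members stood out from other genes.

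Leaving out 1 library gave 0 to 0 members for state averaged, where 3 were called, 0 to 5 in H3K27Ac of CP between genotypes, 0 to 1 for PVT against COR, 0 to 9 for CP against NAC, 0 to 9 for COR and 0 to 8 for PVT against the striatal mean, and 0 to 3 for region by genotype. Without CP WT replicate 1 the member medians were -4.15 for CP against NAC, 1.68 for COR and 1.72 for PVT against the striatal mean. Over all 5029 genes they were -2.56, 1.53 and 1.83. The numbers of members and of all genes called were both highest without that library in these comparisons. Why was not tested.

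Same-numbered WT and Polg(D181A) replicates did not deviate together within a table (r from -0.05 to 0.02). Across the 4 regions within a genotype, same-numbered H3K27Ac replicates had r from -0.04 to 0.14 over 5029 genes, not above 0.1 in every pair. In WT the pairs COR and CP, COR and NAC, and CP and NAC had 0.14, 0.11 and 0.11, and every other pair at most 0.03. The numbers were not taken to pair samples, and whether those WT libraries share animals was not tested. The replicate block left 0 members called between genotypes in all 5 tables and 0 for CP against NAC, where Rpl14 had a log2 difference of -6.54 with adjusted p of 0.0965 (edgeR). For CP against NAC the block called 53 of 5029 genes, against 201 without it. No paired analysis was possible because the RNA columns carry no replicate numbers. The shallowest CP and NAC libraries held 12048787 and 6415127 counts, and each genotype had 2 libraries a table.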
